A study of Homo sapiens with 6 samples.

Results

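SAMD4A and 9 related genes that repress or degrade mRNA were followed in RSM3-treated PC3 cells, which derive from a human prostate carcinoma. The 10 genes are the human Smaug genes SAMD4A and SAMD4B, the ZFP36 genes ZFP36, ZFP36L1 and ZFP36L2, the Regnase genes ZC3H12A and ZC3H12C with the related nuclease gene N4BP1, and the Roquin genes RC3H1 and RC3H2. They were taken by gene name from a count table of 60545 genes. Each name matched 1 row, and all 10 were among the 15773 genes that passed the filter on low counts. SAMD4A was chosen by its p in the same contrast, the smallest of all genes tested, and its family and the other repressors were set beside it with their values known. Their levels and fold changes are therefore a description and carry no test.

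RSM3 is a peptide, by the series' title, and neither its dose nor the duration of treatment is given in the labels. RNA was sequenced from 3 libraries of RSM3-treated PC3 cells and 3 libraries of Control cells of the same line, all grown in RPMI-1640 with serum. The labels do not say whether replicates were separate cultures, so the p-values given here rest on a spread between libraries that may be technical.

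The proteins encoded by these genes act after transcription. Smaug proteins bind short stem-loops in mRNA through a SAM domain, and in Drosophila Smaug represses and destabilises maternal mRNAs by bringing in the CCR4-NOT deadenylase. ZFP36 proteins bind AU-rich elements in 3′ UTRs through CCCH zinc fingers and recruit the same deadenylase, which shortens the poly(A) tail. Regnases cut stem-loops of inflammatory mRNAs with a PIN-domain nuclease, and Roquins bind a related class of stem-loops through a ROQ domain. Several of the genes are themselves induced by inflammatory or growth factor signals, and their products limit cytokine mRNAs.

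The element that ZFP36 proteins bind best is the nonamer TTATTTATT (in RNA, with U for T). A search of the longest annotated 3′ UTR of each gene (GENCODE 29, GRCh38) found it in 5 of the 10 members, and in 9.49% of tested genes with a 3′ UTR. That share is not matched for length (median 1362 bases), and longer 3′ UTRs held the nonamer more often. Of 4649 tested genes with a 3′ UTR of at least 2000 bases, 624 held 1 match and 215 held 2 or more. Nothing is therefore read from the 5 of 10. The 6 matches are shown because they mark which of these repressors carry the full nonamer in their own mRNA. Each is given with 10 flanking bases on either side and the nonamer in capitals.
ZFP36 (chr19:39409196-39409224, plus strand): tatgacgactTTATTTATTctaatatgat
ZFP36L1 (chr14:68788077-68788105, minus strand): aactgttggaTTATTTATTttagaaattc
ZFP36L2 (chr2:43223448-43223476, minus strand): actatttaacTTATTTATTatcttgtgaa
ZC3H12C (chr11:110170157-110170185, plus strand): tttacacccaTTATTTATTagagatattt
RC3H2 site 1 (chr9:122849199-122849227, minus strand): cttagttaacTTATTTATTtctattttat
RC3H2 site 2 (chr9:122847702-122847730, minus strand): tgaagacattTTATTTATTtcactctgta
ZFP36, ZFP36L1 and ZFP36L2 each held 1 match, ZC3H12C held 1 and RC3H2 held 2. SAMD4A, SAMD4B, ZC3H12A, RC3H1 and N4BP1 held no full nonamer. The shorter run within it, TATTTAT, occurred 4 times in SAMD4A, 2 times in RC3H1, 1 time each in SAMD4B and N4BP1, and 0 times in ZC3H12A. Its share over all genes is not given here, and nothing is read from these counts. The 3′ UTRs differed widely in length, from 713 bases in ZFP36 to 7507 in RC3H1, so ZFP36 had the densest match, at 1.4 per kilobase. A match is a run of letters and not a measured binding site.

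SAMD4A was the member that changed most. Its level was 269, 248 and 260 CPM (counts per 1000000, TMM-normalised) in RSM3 replicates 1, 2 and 3, against 110, 110 and 105 CPM in Control replicates 1, 2 and 3. Every RSM3 library lay more than 2-fold above every Control library, and the replicates of each group lay close together. The means were 259 ± 10.3 CPM in RSM3 and 109 ± 2.84 CPM in Control (SD, n = 3 each), and the log2 fold change was 1.25 ± 0.07 (SE), or 2.38-fold. The raw counts behind these values were 3568, 3977 and 4032 in RSM3 and 1867, 1933 and 1997 in Control. Of 472 protein-coding genes called higher, 24 had a larger log2 fold change. None of the 130 that were at least as abundant in Control, a count that includes SAMD4A itself, did. Since SAMD4A was chosen by its p in this contrast, its place among these genes is a description alone. SAMD4A (ENSG00000020577) lies on the plus strand of chromosome 14 from 54567097 to 54793315. An antisense lncRNA gene inside it, AL133444.1, held 1 to 7 counts per library.

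SAMD4B (ENSG00000179134, chr19:39342396-39385710, plus strand), the other human Smaug gene, did not pass the test. It stood at 124, 82.7 and 92.6 CPM in RSM3, against 93.4, 88.7 and 86.9 CPM in Control, and the groups overlapped, with RSM3 replicate 1 alone above all Control libraries. Its log2 fold change was 0.15 ± 0.12 (SE, n = 3 each). Set per kilobase of exon, SAMD4A was at 1.44, 1.99 and 1.86 times the level of SAMD4B in RSM3, against 0.782, 0.822 and 0.802 times in Control. SAMD4A was thus the less abundant of the pair per length in each Control library and the more abundant in each RSM3 library. The lengths used cover all annotated exons of each gene. With the length of the longest transcript instead, the group means kept that order (37.9 and 22.1 CPM per kb for SAMD4A and SAMD4B in RSM3, against 15.9 and 19.8 CPM per kb in Control).

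**Figure D1:**
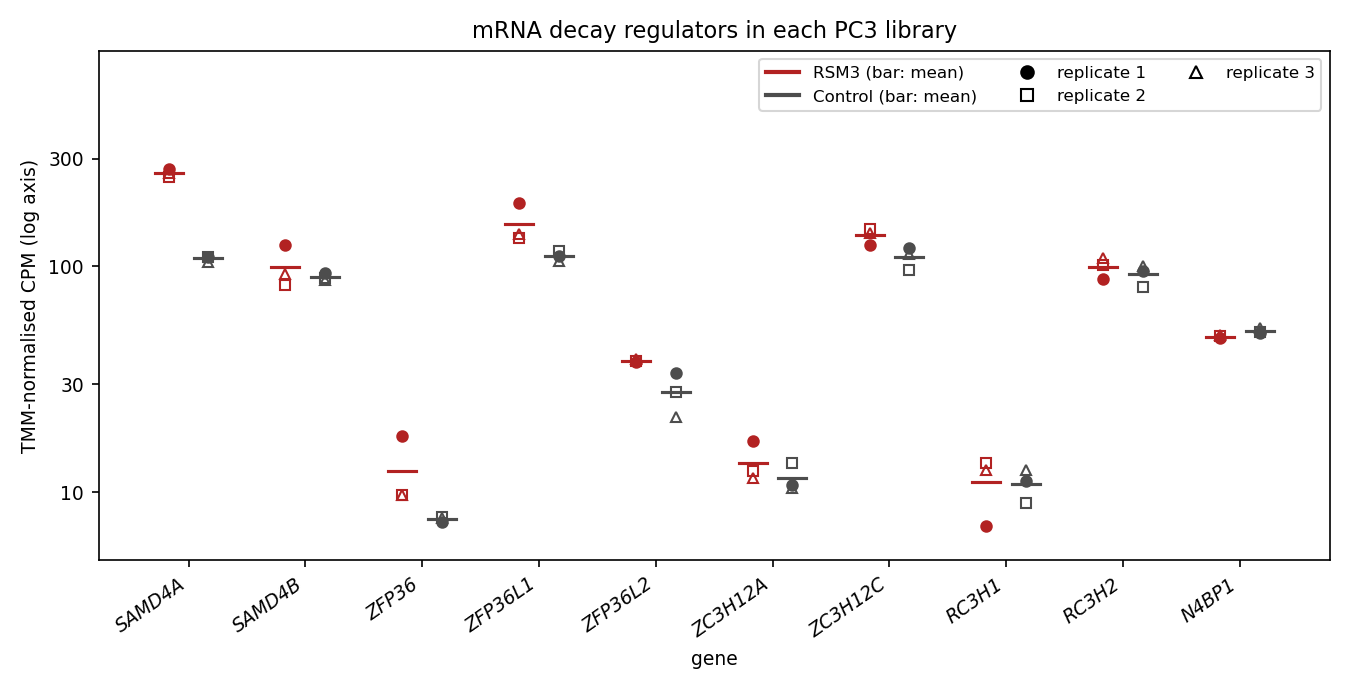
TMM-normalised CPM (log axis) of the 10 genes in each library, RSM3 left of Control for each gene, with bars at the group means and a symbol for each replicate. SAMD4A is separated furthest (259 CPM in RSM3 and 109 CPM in Control), whereas RSM3 replicate 1 lies apart from the other RSM3 libraries in ZFP36, ZFP36L1, SAMD4B, ZC3H12A and RC3H1.

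Among the ZFP36 genes, which encode the AU-rich element binding proteins, ZFP36L1 (ENSG00000185650, chr14:68787660-68796253, minus strand) rose. It stood at 190, 134 and 139 CPM in RSM3, against 111, 117 and 106 CPM in Control, a log2 fold change of 0.47 ± 0.12 (SE). The means were 154 ± 31.0 CPM in RSM3 and 111 ± 5.52 CPM in Control (SD, n = 3 each). The groups did not overlap, and RSM3 replicate 1 was the highest. ZFP36L1 was not called with library size alone as the scaling, with a term for Control replicates 1 and 2, which sets RSM3 against Control replicate 3 alone, or without Control replicate 1, 2 or 3 or RSM3 replicate 3 (log2 fold changes 0.41 to 0.54), and it was called without RSM3 replicate 1 at 0.30.

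ZFP36 (ENSG00000128016, chr19:39406813-39409412, plus strand), which encodes tristetraprolin, had the largest log2 fold change after SAMD4A but did not pass, at 0.70 ± 0.22. Its levels were 17.8, 9.67 and 9.67 CPM in RSM3, against 7.38, 7.75 and 7.65 CPM in Control. All 3 RSM3 libraries were above Control, but replicate 1 was far above the other RSM3 libraries, and without it the log2 fold change was 0.35. ZFP36 and ZFP36L2 were called with no filter on low counts and with DESeq2. ZFP36L2 (ENSG00000152518, chr2:43222402-43226609, minus strand) likewise had no overlap between groups and did not pass, with 37.6, 38.2 and 38.8 CPM in RSM3 against 33.6, 27.9 and 21.5 CPM in Control. Here the spread lay in Control, with SDs of 0.622 CPM in RSM3 and 6.06 CPM in Control. Its log2 fold change was 0.47 ± 0.14, and 0.83, and called, with the term for Control replicates 1 and 2. Without Control replicate 3 it was 0.31.

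Neither Regnase gene among the members passed. Of their relatives outside the members, ZC3H12B did not pass (log2 fold change −0.37) and ZC3H12D had too few counts to be tested. ZC3H12A (ENSG00000163874, chr1:37474552-37484379, plus strand), which encodes Regnase-1, overlapped between groups, with 16.8, 12.4 and 11.5 CPM in RSM3 against 10.8, 13.4 and 10.4 CPM in Control (log2 fold change 0.23 ± 0.17). ZC3H12C (ENSG00000149289, chr11:110093361-110171841, plus strand), which encodes Regnase-3 and was the more abundant of the pair per length, stood at 124, 146 and 140 CPM in RSM3 against 120, 96.2 and 113 CPM in Control (0.32 ± 0.10). Its groups did not overlap, though RSM3 replicate 1 lay close to Control replicate 1. RDX, on the opposite strand, overlaps ZC3H12C and held 1573 to 2735 counts per library. The strand setting of the counting is not given in the sources used here, so reads of the pair cannot be told apart with certainty.

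The Roquin genes and N4BP1 did not pass either. RC3H1 (Roquin-1; ENSG00000135870, chr1:173931214-174022297, minus strand) had 7.08, 13.5 and 12.6 CPM in RSM3 against 11.2, 9.0 and 12.6 CPM in Control, with RSM3 replicate 1 the lowest of the 6 libraries. RC3H2 (Roquin-2; ENSG00000056586, chr9:122844556-122905341, minus strand) had 88.2, 101 and 109 CPM in RSM3 against 95.7, 81.1 and 100 CPM in Control, and the groups overlapped. Their log2 fold changes were 0.03 ± 0.21 and 0.11 ± 0.10. N4BP1 (ENSG00000102921, chr16:48538726-48620148, minus strand), whose product cleaves RNA and restrains cytokine expression, had 48.1, 48.9 and 49.6 CPM in RSM3 against 50.5, 51.4 and 53.4 CPM in Control (−0.08 ± 0.08). It was the sole member with all RSM3 libraries below all Control libraries.

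In all, 2 of the 10 members rose (edgeR quasi-likelihood test, adjusted p under 0.05 over all genes), and none fell here or in the 16 other fits. In the edgeR fit 3.09% of all genes tested rose and 1.1% fell (488 and 174 genes, together 4.2%, or 308 and 254 with library size alone as the scaling). In 5 members all RSM3 libraries lay above all Control libraries, as in 12.8% of genes tested. In 1 member they lay below, as in 11.1% of genes. The median log2 fold change of the members was 0.27, and 0.23 without SAMD4A, against −0.0048 for all genes tested. Since the contrast itself led to the choice of SAMD4A and its relatives, nothing is read from these shares.

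**Figure D2:**
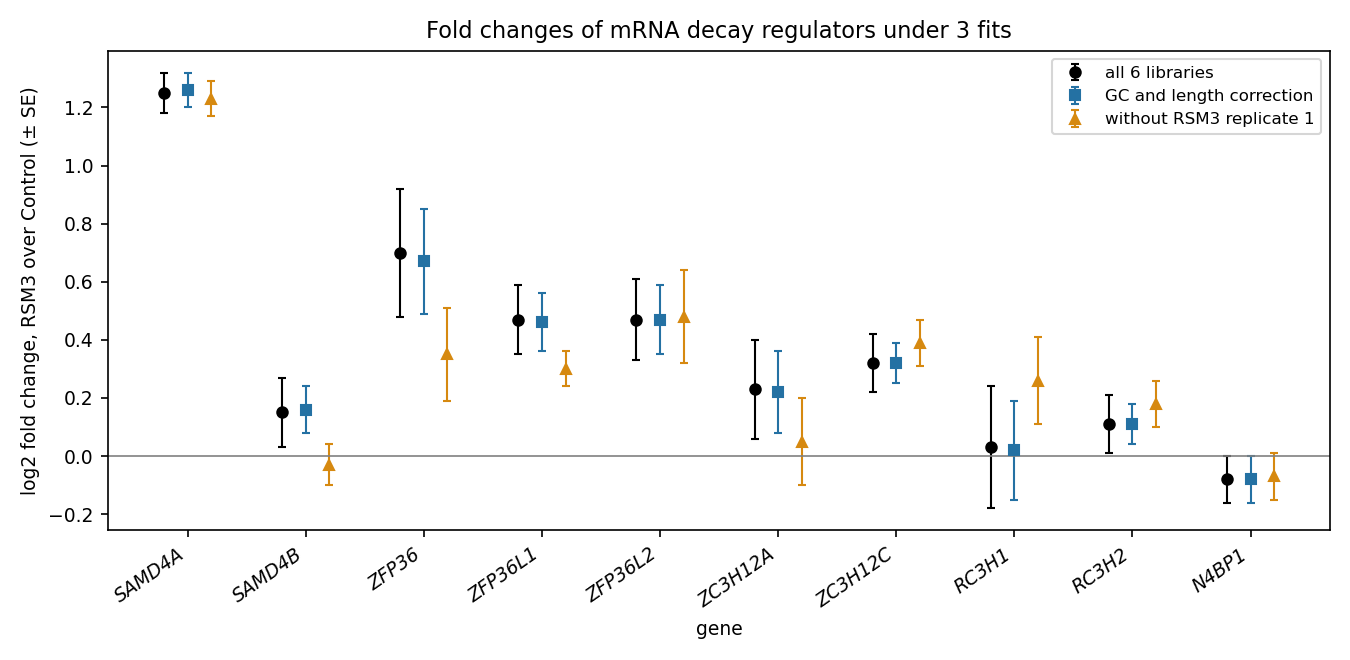
Log2 fold change of RSM3 over Control (± SE) for each gene with all 6 libraries, with a correction for GC content and length, and without RSM3 replicate 1. SAMD4A keeps its value (1.25 with all libraries, 1.23 without RSM3 replicate 1), whereas ZFP36 moves to 0.35 and SAMD4B to −0.03 without that library.

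RSM3 replicate 1 stood apart in its relation to base composition, and several members stood apart in it. Across all genes tested, the log2 difference of a library to the average of all 6 had a Spearman correlation with transcript GC content of 0.418 in RSM3 replicate 1, −0.321 and −0.289 in RSM3 replicates 2 and 3, and 0.139, 0.158 and −0.205 for Control. This is across genes, which do not count as replicates. Of the members, those highest in that library relative to RSM3 replicates 2 and 3 were ZFP36 (0.88 on the log2 scale, GC content 57.3%), SAMD4B (0.50, 57.2%), ZC3H12A (0.49, 61.2%) and ZFP36L1 (0.48, 49.5%). Those lowest there were RC3H1 (−0.88, 38.7%), RC3H2 (−0.25, 37.8%) and ZC3H12C (−0.21, 36.7%). SAMD4A, at a GC content of 47.6%, differed by 0.08. ZFP36L2 (−0.04, 54.4%) and N4BP1 (−0.03, 50.9%) were not higher there, although their GC content was above that of ZFP36L1.

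After a loess correction for GC content and length, the differences of RC3H2 and ZC3H12C were −0.01 and 0.07, whereas ZFP36 kept 0.73 and RC3H1 −0.66. ZFP36L1 kept 0.43, SAMD4B 0.30 and ZC3H12A 0.28, and ZFP36L2 and N4BP1 were at −0.14 and −0.11. With that correction 5 members passed as rises, the further 3 being ZFP36, ZFP36L2 and ZC3H12C, in a fit where 6.3% of all genes rose and 3.4% fell. Without RSM3 replicate 1, SAMD4A, ZFP36L1 and ZC3H12C passed. SAMD4A was called in all 16 other fits, with log2 fold changes of 1.20 to 1.30. SAMD4B, ZC3H12A, RC3H1, RC3H2 and N4BP1 were called in none of them.

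**Figure D3:**
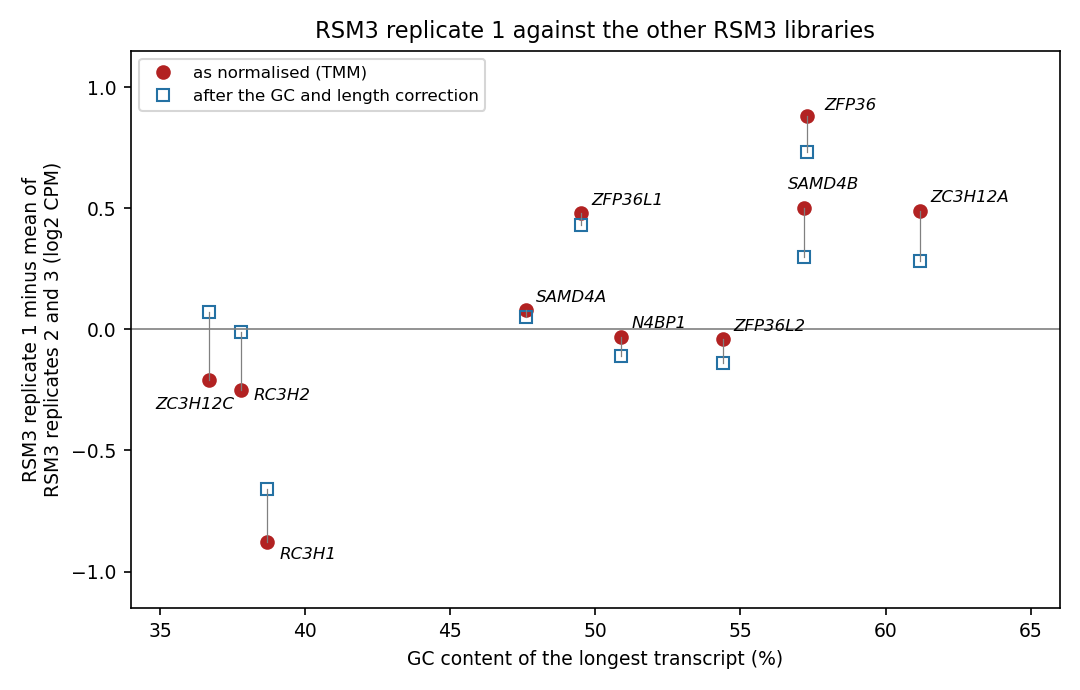
Difference between RSM3 replicate 1 and the mean of RSM3 replicates 2 and 3 (log2 CPM) against the GC content of each gene's longest transcript, before (filled) and after (open) the correction for GC content and length. GC-poor members lie below 0 and most GC-rich members above, from −0.88 for RC3H1 to 0.88 for ZFP36, with SAMD4A at 0.08.

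Per kilobase of exon, ZFP36L1 was the most abundant member in both groups, at 29.9 ± 6.0 CPM per kb in RSM3 and 21.5 ± 1.07 CPM per kb in Control (SD, n = 3 each). SAMD4A followed it in RSM3 with 21.3 ± 0.843 CPM per kb, and was the fourth in Control with 8.92 ± 0.234 CPM per kb. ZC3H12C (14.0 ± 1.20 in RSM3 and 11.3 ± 1.24 CPM per kb in Control) and SAMD4B (12.4 ± 2.66 in RSM3 and 11.1 ± 0.415 CPM per kb in Control) did not differ from each other beyond their spread in either group. ZFP36L2 and RC3H2 came next, at 10.3 and 8.61 CPM per kb in RSM3 and at 7.49 and 8.00 CPM per kb in Control. N4BP1 and ZFP36 were within their spread of each other in RSM3 (6.23 and 6.17 CPM per kb) but not in Control (6.60 ± 0.190 and 3.78 ± 0.0931). ZC3H12A, at 4.34 and 3.69 CPM per kb in RSM3 and Control, and RC3H1, at 0.963 in RSM3 and 0.949 CPM per kb in Control, were the lowest. With the length of the longest transcript in place of all exons, SAMD4A was the third in Control. SAMD4B then stood above ZC3H12C, at 22.1 and 14.3 CPM per kb in RSM3 and at 19.8 and 11.5 CPM per kb in Control, so their order rests on the length used.

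The windows around the annotated starts of these genes were searched for the motifs of factors that act in inflammatory and growth factor signalling. RefSeq (GRCh38.p14) gave 13 starts for 9 of the 10 members, each with 250 bases before and 50 after it. The NF-κB consensus, searched on both strands, occurred in 3 of the 13 windows and in 11.3% of 35116 windows of that length. These were the second of 3 SAMD4A starts, RC3H2 and the upstream start of ZC3H12C. The AP-1 motif TGANTCA and the serum response element (CArG box) occurred in none of the 13, and in 7.71% and 1.29% of all windows. The CRE motif TGACGTCA occurred for ZFP36L1 and N4BP1 (1.85% of all windows). The TATA motif TATAAA occurred in 3 of the 13 (11.5% of all windows) and the TEAD motif GGAATG in 5 (14.0%). The sequence upstream of the pair of neighbouring SAMD4A starts is shown beside that of RC3H2, which holds a match and did not pass. Each is cut where an annotated exon begins, the match in capitals.
SAMD4A, upstream of the start at 54567128 (chr14:54566878-54567096, plus strand): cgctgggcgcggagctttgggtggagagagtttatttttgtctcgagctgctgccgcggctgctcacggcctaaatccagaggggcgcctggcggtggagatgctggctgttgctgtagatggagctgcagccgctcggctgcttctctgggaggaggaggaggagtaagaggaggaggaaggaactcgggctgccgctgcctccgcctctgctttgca
SAMD4A, upstream of the start at 54567612 (chr14:54567362-54567495, plus strand): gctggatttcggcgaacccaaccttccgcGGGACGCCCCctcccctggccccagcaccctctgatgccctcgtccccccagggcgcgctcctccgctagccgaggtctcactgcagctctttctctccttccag
RC3H2, upstream of the start at 122905359 (chr9:122905360-122905609, minus strand): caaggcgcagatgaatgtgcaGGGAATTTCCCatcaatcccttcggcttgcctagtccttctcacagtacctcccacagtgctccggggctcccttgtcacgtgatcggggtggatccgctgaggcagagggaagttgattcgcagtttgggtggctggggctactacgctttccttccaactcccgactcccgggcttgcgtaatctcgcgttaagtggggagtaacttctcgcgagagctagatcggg
The SAMD4A match, GGGACGCCCC, lies in an intron of the transcript that begins further upstream. The RC3H2 run is GGGAATTTCCC. Gene-level counts do not show which SAMD4A start was used, and no match here is a measured site.

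The genes most like SAMD4A over the 6 libraries were CDKN1A, LIF, CCN1, DENND3 and NFKB2. Their log2 fold changes ran from 1.12 to 1.28, around the 1.25 of SAMD4A. Likeness was the root mean square difference between log2 CPM profiles, each centred on its own mean, over the 10764 tested protein-coding genes that averaged 5 CPM or more in either group. It was 0.0732 for CDKN1A, which encodes the CDK inhibitor p21, 0.0758 for the cytokine gene LIF, 0.079 for the matricellular gene CCN1, 0.0842 for the Rab exchange factor gene DENND3 and 0.12 for the NF-κB subunit gene NFKB2. NFKB2 stood at 117, 91.0 and 96.5 CPM in RSM3 against 49.6, 48.7 and 41.3 CPM in Control. Among the members the nearest profile was that of ZFP36 (0.408) and the farthest that of RC3H1 (0.731). For a gene chosen by its group difference, this measure largely ranks others by a similar fold change. It does not show that the genes vary together between replicates. Without RSM3 replicate 1, LIF, CCN1 and CDKN1A remained among the nearest 5, joined by BIRC2 and NFKBIA.

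Genes beside SAMD4A on chromosome 14 moved in different directions. Of 14 annotated genes that start within 500 kb of its start, 8 were tested, of which 2 rose and 1 fell, where 3.09% and 1.1% of all genes tested did. GCH1, the rate-limiting enzyme of tetrahydrobiopterin synthesis and the nearest tested gene beyond the 3′ end of SAMD4A (335.8 kb from its start), rose to 36.4, 42.3 and 44.4 CPM in RSM3, against 26.5, 21.2 and 20.7 CPM in Control (log2 fold change 0.85 ± 0.12, edgeR adjusted p = 0.00168). CDKN3, a phosphatase that acts on cyclin-dependent kinases (170.2 kb away), rose to 57.6 ± 6.16 CPM in RSM3, against 37.2 ± 3.11 CPM in Control (0.63 ± 0.11, edgeR adjusted p = 0.00446). WDHD1, a replication factor gene (460 kb away), fell to 172 ± 10.2 CPM in RSM3, against 221 ± 9.98 CPM in Control (−0.36 ± 0.08, edgeR adjusted p = 0.0192). CGRRF1, the nearest tested gene, 57.3 kb away, stood at 33.0 ± 3.36 CPM in RSM3 and 29.4 ± 0.871 CPM in Control and did not pass (0.17 ± 0.10, edgeR adjusted p = 0.451). GCH1 was called in all 16 other fits, and CDKN3 in 15, all but the one with a term for Control replicates 1 and 2. WDHD1 lost its call under that term and in each fit that left out a library other than RSM3 replicate 1.

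**Figure D4:**
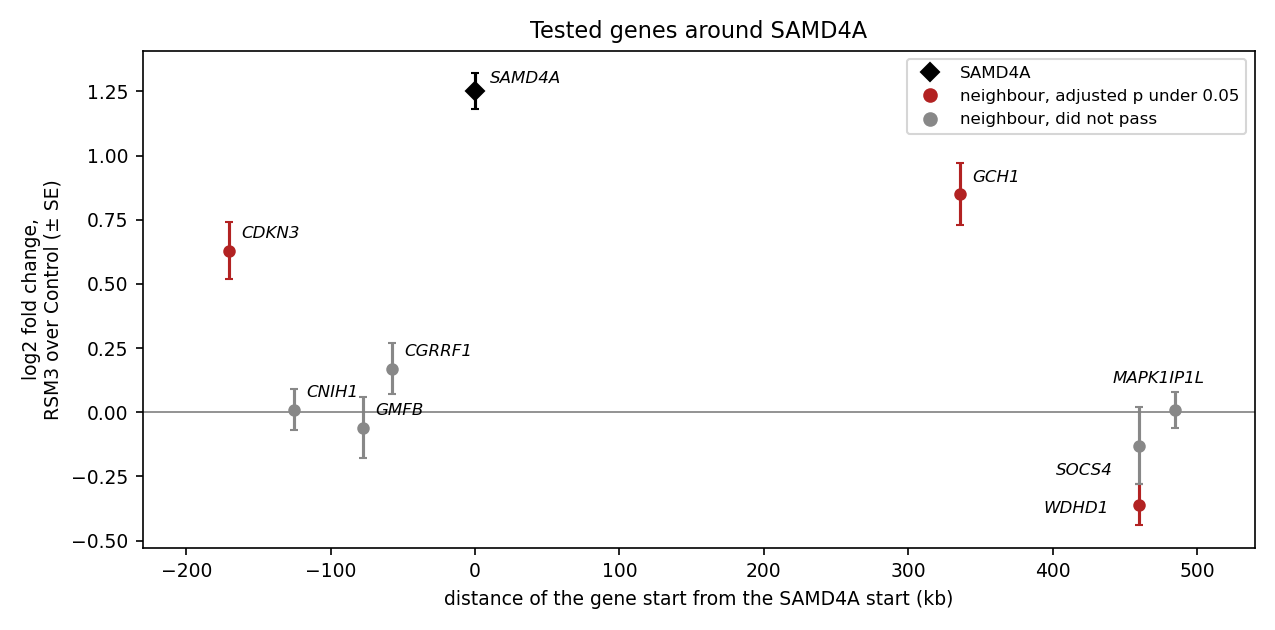
Log2 fold change of RSM3 over Control (± SE) for SAMD4A and the 8 tested genes that start within 500 kb of it, by distance of their starts. SAMD4A (1.25), GCH1 (0.85) and CDKN3 (0.63) are above 0, WDHD1 (−0.36) is below, and CNIH1, GMFB, CGRRF1, SOCS4 and MAPK1IP1L did not pass.

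The machinery that these repressors recruit changed in few genes. Of 105 tested genes for deadenylation, decapping, exosome decay, nonsense-mediated decay, microRNA silencing and other mRNA binding, 3 rose and 1 fell, or 2.86% and 0.952%, close to the 3.09% and 1.1% of all genes. Their median log2 fold change was 0.02. Without RSM3 replicate 1, 7 rose and 6 fell, where 1447 and 946 of all genes did. In the other fits that left out a library, 0 or 1 rose and 0 to 2 fell. None of the 10 CCR4-NOT genes, the deadenylase bound by ZFP36 and Smaug proteins, passed in edgeR, DESeq2 or limma voom, and none had an unadjusted p under 0.05. The scaffold gene CNOT1 stood at 301 ± 7.10 CPM in RSM3 and 286 ± 3.09 CPM in Control, and CNOT9, which binds partner proteins, at 157 ± 6.86 CPM in RSM3 and 141 ± 2.94 CPM in Control (SD, n = 3 each; edgeR adjusted p = 0.653 and 0.298). Without RSM3 replicate 1, CNOT9 was called higher. None of 7 other deadenylases, 17 exosome and 3′ decay genes or 10 nonsense-mediated decay genes passed in these 3 tools, and 0, 1 and 1 of them had an unadjusted p under 0.05. Among the most abundant of them were PARN, PDE12, TTC37, EXOSC10, SMG1 and SMG5, at log2 fold changes of −0.09 to 0.02.

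The rises were AGO2, LSM3 and BTG3. AGO2, the Argonaute that cleaves targets of small RNAs, reached 441, 455 and 483 CPM in RSM3, against 361, 325 and 345 CPM in Control (log2 fold change 0.42 ± 0.08, edgeR adjusted p = 0.00744). LSM3, a subunit of the LSM ring that promotes decapping, reached 55.1 ± 3.99 CPM in RSM3, against 40.5 ± 2.14 CPM in Control (0.44 ± 0.09, edgeR adjusted p = 0.0177). BTG3, of the BTG and TOB family, reached 21.5 ± 4.46 CPM in RSM3, against 14.2 ± 0.594 CPM in Control (0.61 ± 0.15, edgeR adjusted p = 0.0377). The fall was IGF2BP1, which protects mRNAs from decay, with 0.602, 1.87 and 1.22 CPM in RSM3 against 4.08, 2.51 and 3.48 CPM in Control (−1.41 ± 0.36, edgeR adjusted p = 0.0438). LSM3 and BTG3 lost their calls with library size alone, under the Control replicate term and in each fit that left out a library other than RSM3 replicate 1. AGO2 lost its call in 3 of 16 other fits (with that term, without Control replicate 2 and without RSM3 replicate 3) and IGF2BP1 in 6, among them the replicate block and every fit without a Control replicate. TNRC6C, of the microRNA silencing list, did not pass here (log2 fold change −0.59). It was called lower with DESeq2, with the GC and length correction and without RSM3 replicate 1. PATL1, of the decapping list (0.32), was called higher with that correction and without RSM3 replicate 1.

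Known target mRNAs of the ZFP36, Regnase and Roquin proteins included genes that rose and 1 that fell. Of 24 tested, 12 rose and 1 fell (50% and 4.17%), where 3.09% of all genes tested rose and 1.1% fell. The median log2 fold change of the 24 was 0.56. Over all lists, 16 of 149 tested genes rose and 3 fell (10.7% and 2.01%). Without RSM3 replicate 1, 11 known targets rose and 2 fell, of 21 rises and 10 falls over all lists. In that fit 1447 of all genes rose and 946 fell. The list was drawn up with the rises of several cytokine genes in these data known, so it is no independent evidence of a direction. The smallest adjusted p were those of BIRC3, a ubiquitin ligase gene, and the cytokine genes LIF, CXCL8 and CXCL1. BIRC3 reached 40.5, 57.6 and 56.6 CPM in RSM3 against 10.1, 9.86 and 10.7 CPM in Control (log2 fold change 2.34 ± 0.14, edgeR adjusted p = 3.11e-06). CXCL8, the neutrophil chemokine gene, reached 29.3, 40.1 and 43.2 CPM in RSM3 against 4.79, 8.03 and 6.85 CPM in Control (2.51 ± 0.19, edgeR adjusted p = 1.14e-05). No library of these overlapped between groups, and all 4 genes were called in the 16 other fits. Others were named after their values were seen. PTGS2, the inducible cyclooxygenase gene, reached 4.67 ± 0.722 CPM in RSM3 against 1.74 ± 0.414 CPM in Control (log2 fold change 1.41 ± 0.26, edgeR adjusted p = 0.00765). The early response gene IER3 reached 110 ± 1.34 CPM in RSM3 against 86.9 ± 5.51 CPM in Control (0.34 ± 0.08, edgeR adjusted p = 0.0297). HIF1A, which encodes the hypoxia-inducible factor subunit and was the fall, stood at 481, 484 and 522 CPM in RSM3 against 655, 672 and 701 CPM in Control (−0.45 ± 0.07, edgeR adjusted p = 0.00409). The number of rises was 7 under the Control replicate term and 8 without Control replicate 1. PTGS2 was not called without Control replicate 1 or under that term, HIF1A under that term, and IER3 in 7 of 16 other fits.

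Among the kinases and other proteins that act on the members, MAP2K3 rose and MAP2K6 fell, and 18 of 20 did not pass. This is 5% of the list in each direction, or 1 gene, where 3.09% of all genes rose and 1.1% fell. These are the paired activators of p38, the kinase pathway that controls ZFP36 through MK2. MAP2K3 reached 66.2 ± 4.93 CPM in RSM3, against 44.9 ± 2.25 CPM in Control (log2 fold change 0.56 ± 0.09, edgeR adjusted p = 0.00395), and MAP2K6 stood at 18.5 ± 4.07 CPM in RSM3 and 45.8 ± 1.95 CPM in Control (−1.30 ± 0.14, edgeR adjusted p = 0.000167). MAP2K3 lost its call with the term for Control replicates 1 and 2.

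**Figure D5:**
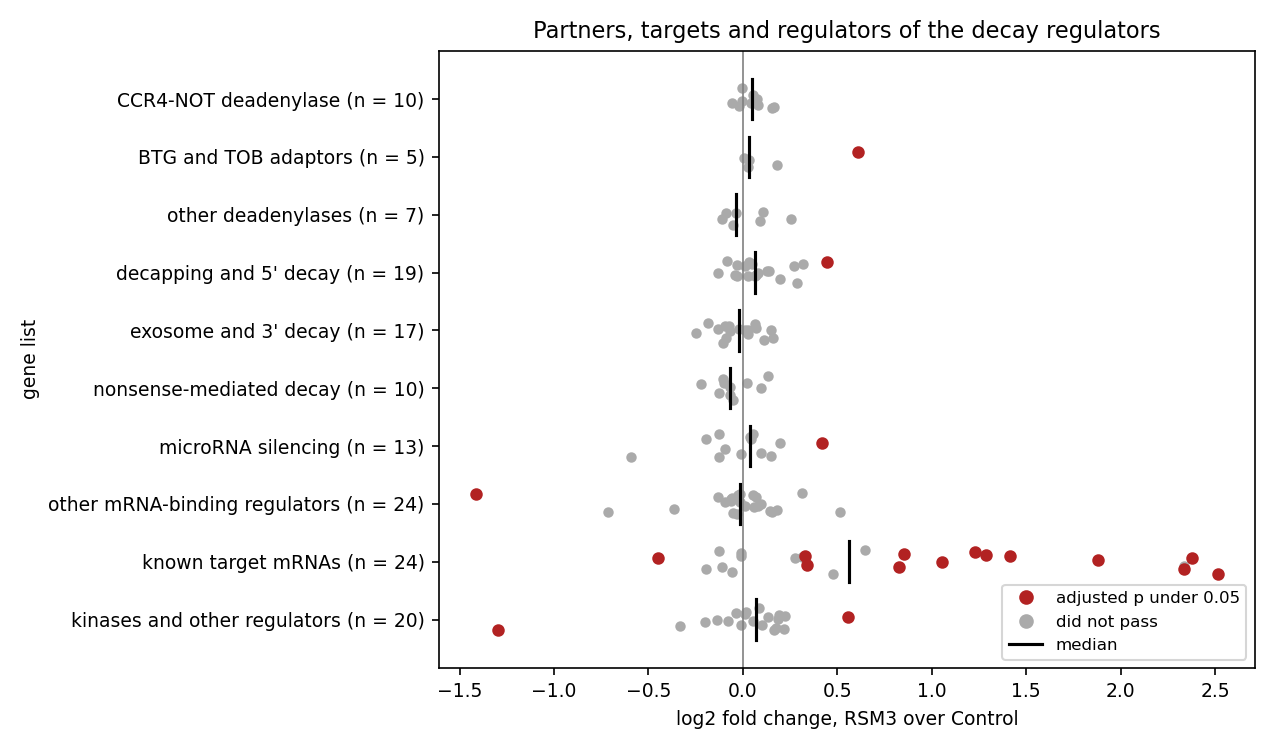
Log2 fold change of RSM3 over Control for each tested gene of 10 lists (points, with vertical bars at the medians), those with an adjusted p under 0.05 in red. Medians of 9 lists lie between −0.07 and 0.07, and that of the known target mRNAs at 0.56.

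The nonamer was then set against the change of every tested gene with an annotated 3′ UTR. Of 297 genes with 2 or more nonamers, 25 rose and 5 fell (8.42% and 1.68%), against 406 and 147 of 11623 genes with none (3.49% and 1.26%). The medians were −0.02 and 0.01. Genes with 2 or more nonamers had longer 3′ UTRs (median 3961 bases against 1245) and a lower GC content (43.0% against 48.8%), and the part of either in the difference was not tested. Among genes with a 3′ UTR of at least 2000 bases, 5.58% of those with 2 or more nonamers and 3.23% of those with none rose. With the GC and length correction, 10.4% of genes with 2 or more nonamers rose and 6.73% fell over all lengths, against 7.31% and 3.71% of genes with none. In the long 3′ UTRs that correction gave 6.51% rises and 6.98% falls with 2 or more nonamers, against 7.48% and 5.04% with none. With that correction both shares were higher over all lengths, and in long 3′ UTRs that of falls alone. The latter rests on 14 rises and 15 falls of 215 genes. Length was not matched there either, with a median of 5071 bases with 2 or more nonamers against 3255 with none. Of the 25 that rose, CXCL1, CXCL2, LIF and DUSP1 were on the list of known targets, and ANKRD1 (2 nonamers) had the largest log2 fold change of the 25, 2.01 (all named after their values were seen). Of the known targets, 15 of 24 held a nonamer, and 9 of these 15 rose, as did 3 of the 9 without one. That list was drawn up with the rises of several cytokine genes known, so nothing is read from this split.

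The libraries held 14091359 to 16036658 counts in RSM3 and 16637873 to 18594251 in Control. Marker sums are given in CPM by library size alone, without the TMM scaling used for the other CPM values. The 5 epithelial markers KRT8, KRT18, KRT19, EPCAM and CDH1 summed to 1027 to 1251 CPM in RSM3 and 1161 to 1322 CPM in Control, and all 5 passed the filter. The 5 luminal prostate markers summed to 72.4 to 81.7 CPM in RSM3 and 51.5 to 56.1 CPM in Control, nearly all of it TMPRSS2. KLK2 and KLK3, kallikrein genes of the luminal prostate, held at most 1 count in a library. None of 6 leukocyte markers was abundant enough to be tested, with CD3E at 0 and sums of 0.624 to 0.705 CPM in RSM3 and 0.645 to 2.55 CPM in Control. Of 5 fibroblast markers DCN was at 0 and COL1A1 and PDGFRA were expressed, with sums of 74.6 to 95.4 CPM in RSM3 and 99.8 to 121 CPM in Control. Their part in the results was not tested. In bulk RNA, fewer cells expressing a gene and less RNA per cell cannot be told apart.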

How the data were processed

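PolyA RNA of 6 PC3 libraries (3 RSM3, 3 Control) was sequenced, and the authors deposited 1 table of gene counts. Tools listed in the submitters' processing notes are STAR 2.7.1a, fastp, DESeq2 and featureCounts, with build hg38. The strand setting of the counting was not given. Counts were analysed as deposited in R 4.3.3 with edgeR 4.0.16: filterByExpr (minimum count 10), TMM scaling, a robust quasi-likelihood fit of RSM3 against Control without covariates, and Benjamini-Hochberg adjustment over 15773 genes, called under an adjusted p of 0.05. SEs were derived from the F statistic. The fit was tested on simulated data.

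The members and lists were chosen with earlier results of these data known. Named were all members, up to 4 called genes of each list with the smallest adjusted p (or the 2 most abundant where none was called), the called and nearest neighbours of SAMD4A and the 5 genes most like it. Gene models, 3′ UTRs and GC content came from GENCODE 29 (GRCh38), and start windows from RefSeq (GRCh38.p14). Alternatives were other scalings and filters, DESeq2 1.42.0, limma 3.58.1 (voom), a replicate block, a loess correction for GC content and length, a term for Control replicates 1 and 2, and leaving out each library. Libraries held 14091359 to 18594251 counts.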

Additional observations from a re-analysis of the deposited data

How the results depend on the processing

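SAMD4A was called in all 16 other fits, at 1.20 with library size alone in place of TMM. Over all genes, rises and falls numbered 488 and 174, against 308 and 254 with library size alone, 993 and 537 with the GC and length correction, and 100 and 18 with the term for Control replicates 1 and 2. With no filter 691 genes rose and 392 fell, and with DESeq2 620 rose and 268 fell. Leaving out 1 library gave 177 to 1447 rises and 37 to 946 falls, both highest without RSM3 replicate 1. Members called were 2, against 1 with library size alone, 5 with no filter, 4 with DESeq2, 5 with the GC and length correction, and 1 to 3 with 1 library left out. Partner genes gave 16 rises and 3 falls, against 7 and 1 with that term, 5 falls with the GC and length correction, and 10 to 21 rises and 2 to 10 falls with 1 library left out. ZFP36L2 had a log2 fold change of 0.83 with that term, and N4BP1 had −0.13 with it and −0.14 with library size alone. The cause of these shifts was not tested.

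With the replicate number as a block, 467 genes rose and 186 fell, and 3 members rose (ZFP36L2 was added). Of the pooled gene lists, known targets included, 17 genes rose and 2 fell. With the block and the GC and length correction, 909 genes rose and 470 fell, and 5 members rose. Same-numbered libraries had deviations correlated at 0.0302, −0.0249 and 0.0444, and those of different numbers at −0.09 to 0.071. With 3 libraries per group these values cannot decide whether the numbers pair libraries, and the labels do not say so.

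Per length of the longest transcript, levels in RSM3 were 37.9 CPM per kb for SAMD4A, 22.1 for SAMD4B, 48.3 for ZFP36L1, 10.7 for RC3H2 and 6.87 for N4BP1. Of the 5 genes most like SAMD4A, 3 remained without RSM3 replicate 1. The members with the fewest counts per library were RC3H1 (94 to 239), ZFP36 (125 to 237) and ZC3H12A (178 to 236).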
